A study of Mus musculus with 14 samples.

Results

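Activated T cells need amino acids to grow, and a set of 42 genes that make, import or attach amino acids to tRNA, or that belong to the ATF4 stress program, was followed across 7 culture media. The genes were chosen by name, from their known roles, at a time when earlier results of these data were known. They comprised 7 stress transcription factors and cofactors, 6 feedback and effector genes, 8 enzymes of amino acid synthesis, 3 mitochondrial enzymes of the folate-linked 1-carbon pathway, 8 amino acid transporters and 10 cytosolic tRNA synthetases. All 42 were found in the deposited tables, as 56 transcripts, and all 42 reached a mean of 1 FPKM (fragments mapped to a transcript, scaled for its length and for the size of the library) in at least 1 medium, among 11546 of 23736 genes that did so.

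RNA sequencing was done on mouse CD4+ T cells, with 7 media and 2 libraries for each. Naive cells (CD4+CD62LhiCD44loCD25-) of C57BL/6 mice were used in every medium. They were cultured for 3 days on plate-bound anti-CD3 and anti-CD28, both at 10 µg/ml, so that all 14 libraries come from stimulated cells and none from resting ones. The medium labelled IL27_plus_TGF_beta (here IL-27 plus TGF-β) held IL-27 at 20 ng/ml, TGF-β at 2 ng/ml and antibodies to IFN-γ, IL-2 and IL-4. Th1 medium held IL-12 at 20 ng/ml and anti-IL-4 at 10 µg/ml, and Th2 medium held IL-4 at 20 ng/ml and anti-IFN-γ at 10 µg/ml. The iTreg medium held TGF-β at 20 ng/ml, IL-2 at 50 U/ml and anti-IFN-γ. Th17_b medium held TGF-β at 2 ng/ml, IL-6 at 20 ng/ml, anti-IFN-γ, and anti-IL-2 at 10 µg/ml. Th17_23 medium held IL-1β and IL-6 at 20 ng/ml each, IL-23 at 50 ng/ml, anti-IFN-γ, anti-IL-2 and a pair of anti-TGF-β antibodies at 5 µg/ml each. Th0 medium, the comparator below, had no added cytokine and held antibodies that block IL-4, IFN-γ and IL-2. The media differ in several components at once, so the parts played by single cytokines or antibodies cannot be told apart. The labels do not say whether the replicates came from separate mice or cultures, and the p-values therefore measure the spread between these libraries, which may be technical.

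ATF4 is a basic leucine zipper transcription factor whose protein is made mainly under stress: when amino acids run short or misfolded proteins build up, kinases phosphorylate eIF2α, translation in general slows, and the Atf4 mRNA is translated more. In amino acid shortage the kinase is GCN2 (Eif2ak4), and in endoplasmic reticulum stress it is PERK (Eif2ak3). ATF4 pairs with C/EBP proteins on composite elements and raises genes for asparagine, serine and proline synthesis, amino acid transporters and tRNA synthetases, along with Trib3 and Ddit3, which feed back on the response. In T cells the same supply genes also rise on activation, when Myc and mTORC1 drive growth, and the transporter Slc7a5 is needed for that growth.

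The C/EBP-ATF element was searched as TGATGNAA, with its reverse complement TTNCATCA, in RefSeq promoter windows of build GRCm38.p6, which reach from 250 bases before each gene's start to 50 after it. The submitters' processing notes name mm9 for the FPKM tables, and no mm9 coordinates were used. Of the 42 genes, 37 had a window, and 15 of these (40.5%) held the element, against 4.51% of all 27025 genes with a window and 2.85% of the 9175 tested genes with one. The list was drawn up partly from the ATF4 program, which acts through such elements. The higher share therefore follows in part from that choice and is no result of these data. In 11 of the 15 the whole element lay upstream of the start. The stretches below are upstream bases of 6 such genes, printed 5′ to 3′ on the coding strand with the element in capitals and up to 25 bases on either side, to show how the element and its neighbourhood differ between genes described below.
Nupr1: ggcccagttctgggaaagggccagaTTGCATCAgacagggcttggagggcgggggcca
Asns: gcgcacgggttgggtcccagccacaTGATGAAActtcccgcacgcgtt
Atf3: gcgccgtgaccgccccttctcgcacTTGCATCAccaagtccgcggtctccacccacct
Chac1: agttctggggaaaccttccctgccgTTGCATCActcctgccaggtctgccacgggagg
Pycr1: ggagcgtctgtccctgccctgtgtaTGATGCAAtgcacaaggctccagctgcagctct
Gars: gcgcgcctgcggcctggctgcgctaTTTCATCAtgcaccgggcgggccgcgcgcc
They lie at chr7:126625548-126625605 (minus strand) for Nupr1, chr6:7693210-7693257 (minus) for Asns, chr1:191183411-191183468 (minus) for Atf3, chr2:119351024-119351081 (plus) for Chac1, chr11:120643819-120643876 (minus) for Pycr1 and chr6:55037946-55038000 (plus) for Gars. Asns and Pycr1 carry the element in the direction TGATGNAA and the other 4 carry its reverse complement. Read as printed, it is TTGCATCA in Nupr1, Atf3 and Chac1, TGATGCAA in Pycr1, TGATGAAA in Asns and TTTCATCA in Gars. The windows of Got1, Vldlr, Slc7a11, Aars and Tars also held it upstream, Slc7a11 on both strands. Trib3, Yars and Iars held it only after the start, and in Slc1a4 it spanned the start. No window was given for Slc7a5, Slc1a5, Slc38a1, Nars or Cars. A match describes these letters only and shows no binding.

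Across the whole series, replicates correlated at 0.985 to 0.992 over tested genes and libraries of different media at 0.867 to 0.979. FPKM give no read totals. From the steps of low values, relative depth was 0.935 to 1.06 times that of Th0 replicate 1 in replicate 1 libraries and 0.748 to 0.832 times in replicate 2 libraries, an estimate in which 40.4% to 48.5% of the ratios lay within 1% of a ratio of whole reads. T cell markers were high in every medium: Cd3e averaged 480.1 FPKM in IL-27 plus TGF-β, 259 in iTreg and 209 in Th0, and Cd4 averaged 178 FPKM in IL-27 plus TGF-β, 253 in iTreg and 238 in Th0. The defining markers of B cells (Ms4a1), myeloid cells (Lyz2, Csf1r), dendritic cells (Itgax, Flt3), natural killer cells (Ncr1, Klrb1c) and CD8 cells (Cd8a) had medium means of 0 to 0.325 FPKM. The summed level of the 2 listed CD8 markers, in effect that of Cd8b1, was 2.71 to 2.72 FPKM in IL-27 plus TGF-β and 6.70 to 7.78 in Th0. That of the 4 myeloid markers, mostly Cd68, was 5.83 to 6.13 FPKM in IL-27 plus TGF-β and 3.21 to 3.39 in Th0. Batf3, listed as a dendritic cell marker, averaged 44.8 FPKM in Th2 medium and 0.204 in Th17_b. The part of other cells in the results below was not tested. The iTreg libraries stood apart from each other: replicate 2 was above replicate 1 in 41 of the 42 genes, with a median difference of 0.44 on the log2 scale, against 0.09 over all genes. In Th0 it was above in 37 (median 0.17) and in IL-27 plus TGF-β in 39 (median 0.11). In bulk RNA, fewer cells that express a gene and less RNA per cell cannot be told apart.

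The supply genes stood highest in Th0, Th1 and Th2 medium and lowest in Th17_b, IL-27 plus TGF-β and iTreg medium. Ranked from 1 (highest medium mean) to 7, the median rank over the 42 genes was 6 for IL-27 plus TGF-β, 2 for Th1, 3 for Th2, 5 for iTreg, 7 for Th17_b, 4 for Th17_23 and 1 for Th0. Th17_b had the lowest mean in 25 of the 42 genes, iTreg in 8 and IL-27 plus TGF-β in 6, while Th0 had the highest in 23. In limma's moderated F test, 41 of the 42 genes differed among the media at an adjusted p under 0.05, but so did 93% of all genes tested. The exception was Slc38a2, a transporter of small neutral amino acids, with an adjusted p of 0.26.

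**Figure D1:**
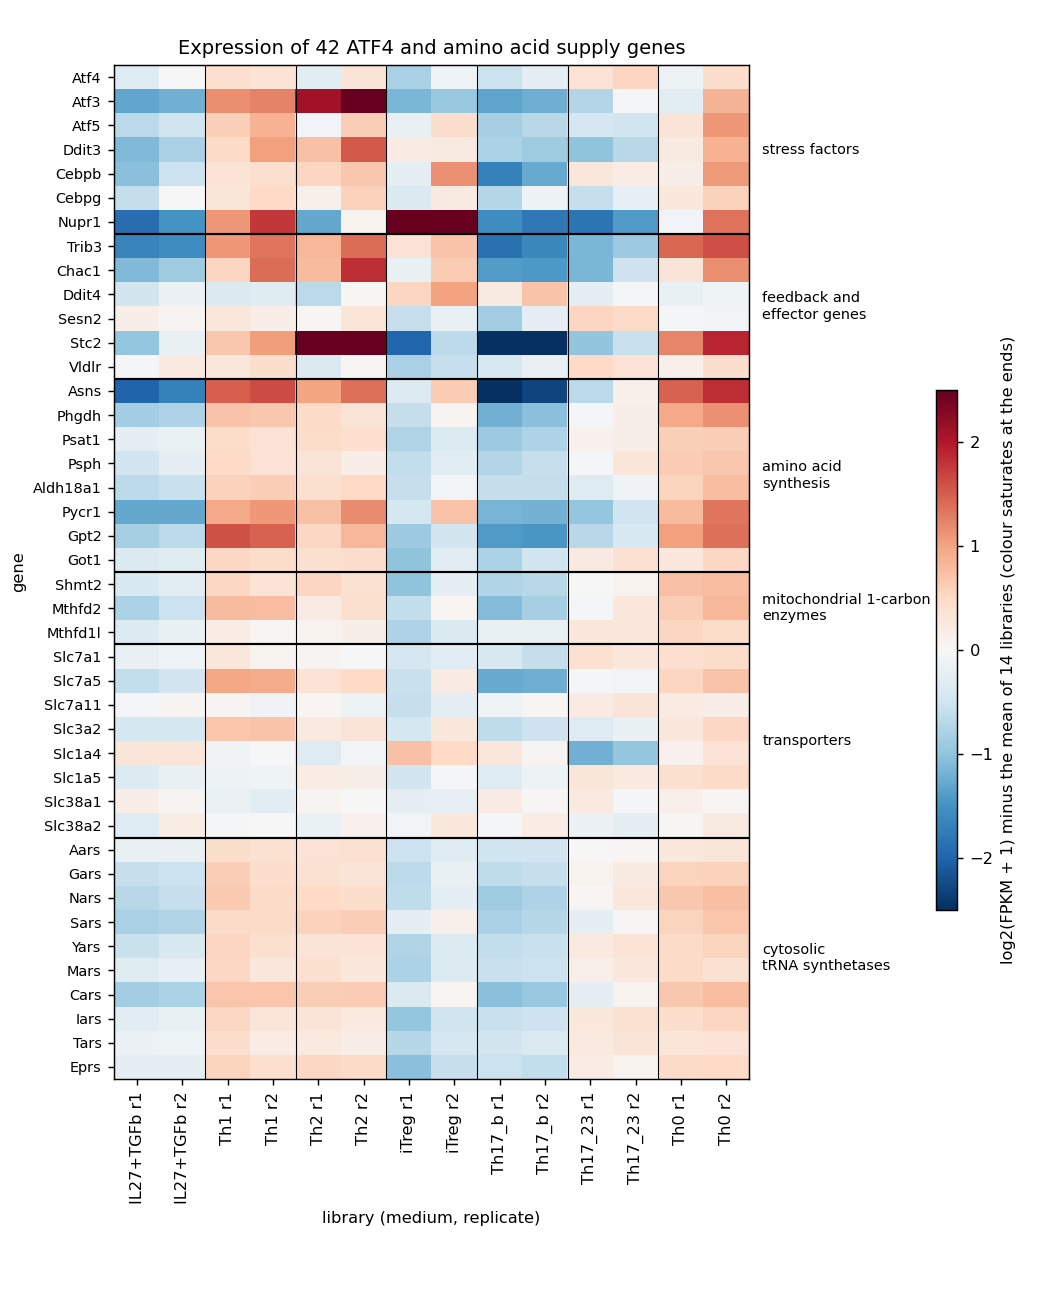
Expression of the 42 genes (rows, grouped by role) in the 14 libraries (columns, IL27+TGFb standing for IL-27 plus TGF-β), as log2(FPKM + 1) minus the gene's mean over the 14 libraries; the colour saturates at the ends of the scale. Most rows are blue in IL27+TGFb, iTreg and Th17_b and red in Th1, Th2 and Th0, and Nupr1, Ddit4 and Slc1a4 are red in iTreg.

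Against Th0, 34 of the 42 genes were lower in IL-27 plus TGF-β and 0 were higher (limma, Benjamini-Hochberg adjusted p under 0.05; also 0 higher at an unadjusted p under 0.05), with a median log2 change of -1.0. Of all genes tested, 28.9% were lower and 22% higher, with a median of -0.04. In Th17_b, 37 were lower and 1 higher, with a median of -1.21, against 29.1% lower and 25.4% higher of all genes. In iTreg, 34 were lower and 3 higher, with a median of -0.91, against 40.8% lower and 22.7% higher of all genes and an all-gene median of -0.13. In Th17_23, 25 were lower and 1 higher, with a median of -0.54, against 23% lower and 26.4% higher of all genes. Because 1 was added to each FPKM before taking logs, log2 changes come out too small for genes near 0 FPKM. Scaling all libraries to 1 median moved the all-gene median of iTreg to -0.01 and the median of the 42 genes to -0.79, and turned the all-gene split of 2626 higher and 4711 lower into 3463 higher and 3858 lower, with 32 of the 42 genes lower and 3 higher.

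Fewer of the genes were called in Th1 and Th2 medium. In Th1 medium 3 genes were lower and 1 higher, with a median log2 change of -0.05, near the shares of all genes, 7.57% lower and 6.37% higher. They were Slc1a5 (-0.54 ± 0.11, adjusted p = 0.012), Mthfd1l (-0.39 ± 0.11, adjusted p = 0.049) and Slc38a1 (-0.29 ± 0.07, adjusted p = 0.026), and Atf3 (0.92 ± 0.25, adjusted p = 0.038), each as log2 change ± standard error. None of the 4 held in all alternatives: fitting Th1 and Th0 alone called 0 of 42 (13 at an unadjusted p under 0.05), and leaving out 1 library called 0 or 1. In Th2 medium 8 were lower and 2 higher, with a median of -0.17, against 12.4% lower and 5.69% higher of all genes, a split that became 930 higher and 971 lower genes, in place of 657 and 1429, under quantile normalization. The largest falls were in Nupr1 (-1.24 ± 0.33, adjusted p = 0.029), Phgdh (-0.64 ± 0.15, adjusted p = 0.018) and Gpt2 (-0.53 ± 0.13, adjusted p = 0.021), and the rises were in Atf3 and Stc2. Leaving out Th0 replicate 1 left 2 of the 10 called, and leaving out Th0 replicate 2 also left 2.

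**Figure D2:**
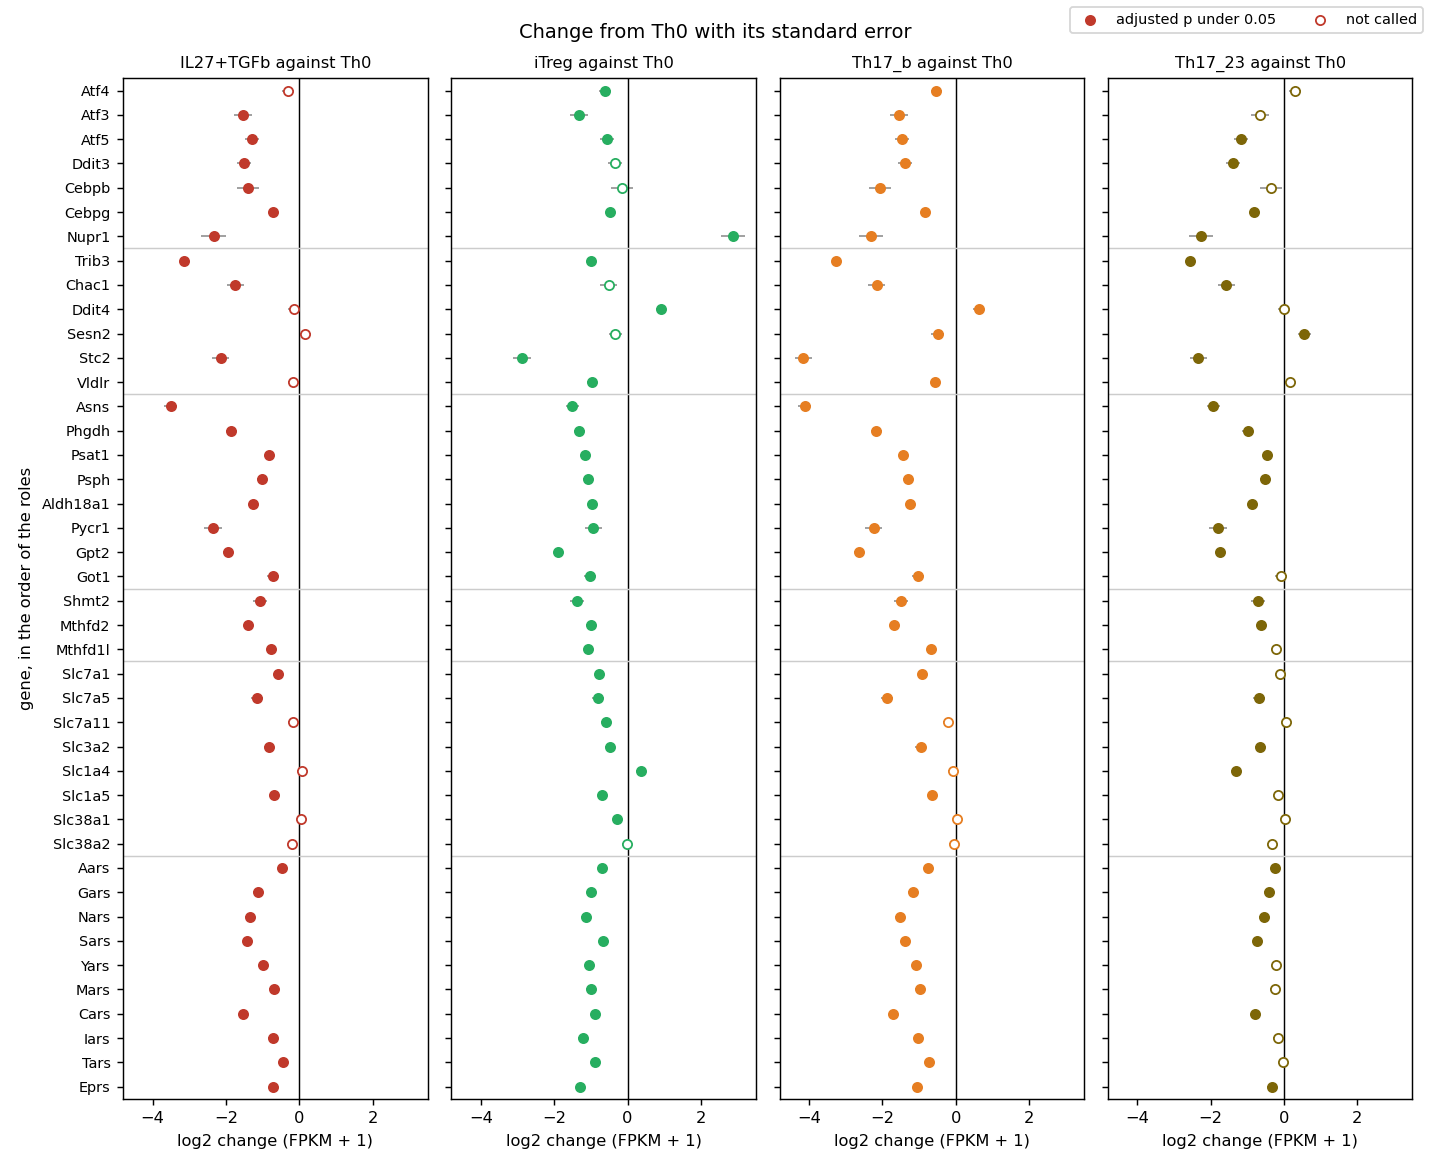
Log2 change from Th0 (horizontal axis, ± standard error) of each of the 42 genes (vertical axis, in the order of the roles) in 4 media; filled points passed an adjusted p under 0.05. Points lie left of 0 for 39 genes in IL27+TGFb, 39 in iTreg, 40 in Th17_b and 37 in Th17_23, and Asns, Trib3 and Stc2 lie farthest left in Th17_b.

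Among the stress factors, the mRNA of Atf4 itself was called lower in iTreg and Th17_b and not in IL-27 plus TGF-β. Atf4 had 78.6 and 98.2 FPKM in IL-27 plus TGF-β, 129.8 and 124 in Th1, 81.6 and 124 in Th2, 55.3 and 90.4 in iTreg, 67.8 and 84.0 in Th17_b, 126 and 142 in Th17_23, and 89.6 and 133 in Th0. The Th0 libraries overlapped those of every medium except Th17_b. The log2 change was -0.31 ± 0.16 in IL-27 plus TGF-β (adjusted p = 0.13), -0.62 ± 0.16 in iTreg (adjusted p = 0.0073) and -0.53 ± 0.16 in Th17_b (adjusted p = 0.019). The calls in iTreg and Th17_b were lost without Th0 replicate 2, with adjusted p of 0.068 and 0.14, and without the replicate block, with 0.067 and 0.12; the iTreg call was also lost without iTreg replicate 1 (0.078), and the Th17_b call without Th17_b replicate 1 (0.065) or 2 (0.099). ATF4 protein, which is set largely by translation, was not measured.

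Ddit3, which encodes the stress factor CHOP, had 10.1 and 12.6 FPKM in IL-27 plus TGF-β, 32.1 and 47.6 in Th1, 38.4 and 67.4 in Th2, 26.2 and 26.7 in iTreg, 12.7 and 11.9 in Th17_b, 10.8 and 13.7 in Th17_23, and 26.6 and 42.6 in Th0. All libraries of IL-27 plus TGF-β, Th17_b and Th17_23 lay below both Th0 libraries, while the lower Th0 library lay between the 2 iTreg libraries. Against Th0, the log2 change was -1.50 ± 0.19 in IL-27 plus TGF-β (adjusted p = 0.00016), -1.38 ± 0.19 in Th17_b (adjusted p = 0.00024) and -1.39 ± 0.19 in Th17_23 (adjusted p = 0.00036), against -0.34 ± 0.19 in iTreg (adjusted p = 0.15). The media in which it was lower included Th17_23, which had no added TGF-β.

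Nupr1, a small stress-induced chromatin protein, went the other way in iTreg. It had 0.0590 and 0.413 FPKM in IL-27 plus TGF-β, 7.34 and 12.4 in Th1, 0.639 and 3.18 in Th2, 36.2 and 54.2 in iTreg, 0.340 and 0.151 in Th17_b, 0.117 and 0.479 in Th17_23, and 2.79 and 9.09 in Th0. Both iTreg libraries stood above all 12 others, and the libraries of IL-27 plus TGF-β, Th17_b and Th17_23 were all under 1 FPKM and below both Th0 libraries. Its log2 change was 2.87 ± 0.33 in iTreg (adjusted p = 7.4e-05) and -2.34 ± 0.33 in IL-27 plus TGF-β (adjusted p = 0.00029), and the direct difference of IL-27 plus TGF-β from iTreg was -5.21 ± 0.33 (adjusted p = 1.1e-06). The Th0 libraries lay far apart for this gene, and its fold changes at levels near 0 are uncertain.

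Atf3, an ATF family member that ATF4 raises, was highest in Th2 medium and next highest in Th1. It had 0.0139 and 0.0811 FPKM in IL-27 plus TGF-β, 4.57 and 4.89 in Th1, 9.64 and 17 in Th2, 0.129 and 0.287 in iTreg, 0 and 0.0713 in Th17_b, 0.498 and 1.45 in Th17_23, and 1.05 and 3.47 in Th0. Both Th2 libraries stood above all others, and both Th1 libraries above both Th0 libraries; the iTreg, IL-27 plus TGF-β and Th17_b libraries were all at or below 0.287 FPKM. The log2 change was 2.19 ± 0.25 in Th2 (adjusted p = 0.00032), -1.53 ± 0.25 in IL-27 plus TGF-β (adjusted p = 0.00071), -1.33 ± 0.25 in iTreg (adjusted p = 0.0012) and -1.55 ± 0.25 in Th17_b (adjusted p = 0.0006).

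Cebpb, a C/EBP partner of ATF4, had 2.37 and 3.83 FPKM in IL-27 plus TGF-β, 7.90 and 8.23 in Th1, 9.22 and 10.2 in Th2, 4.93 and 14.4 in iTreg, 1.17 and 1.92 in Th17_b, 7.51 and 6.97 in Th17_23, and 6.72 and 13.6 in Th0. Both libraries of IL-27 plus TGF-β and of Th17_b lay below those of Th0, and the iTreg libraries spanned the Th0 range. Against Th0, the log2 change was -1.39 ± 0.30 in IL-27 plus TGF-β (adjusted p = 0.0037) and -2.08 ± 0.30 in Th17_b (adjusted p = 0.00032), against -0.36 ± 0.30 in Th17_23 (adjusted p = 0.34). Cebpg, another C/EBP partner, was lower in 4 media, with log2 changes of -0.71 in IL-27 plus TGF-β, -0.48 in iTreg, -0.83 in Th17_b and -0.81 in Th17_23. Atf5, an ATF4 relative, was lower in the same 4 media, with -1.29 in IL-27 plus TGF-β, -0.57 in iTreg, -1.47 in Th17_b and -1.17 in Th17_23, although 68.4% to 96.8% of its FPKM lay on a transcript that RefSeq numbers as non-coding. Without the replicate block the Cebpg calls in IL-27 plus TGF-β (adjusted p 0.057) and iTreg (0.16) were lost. The Atf5 call in iTreg was lost in several alternatives, among them without the replicate block (0.11), without Th0 replicate 2 (0.22) and without iTreg replicate 1 (0.17).

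**Figure D3:**
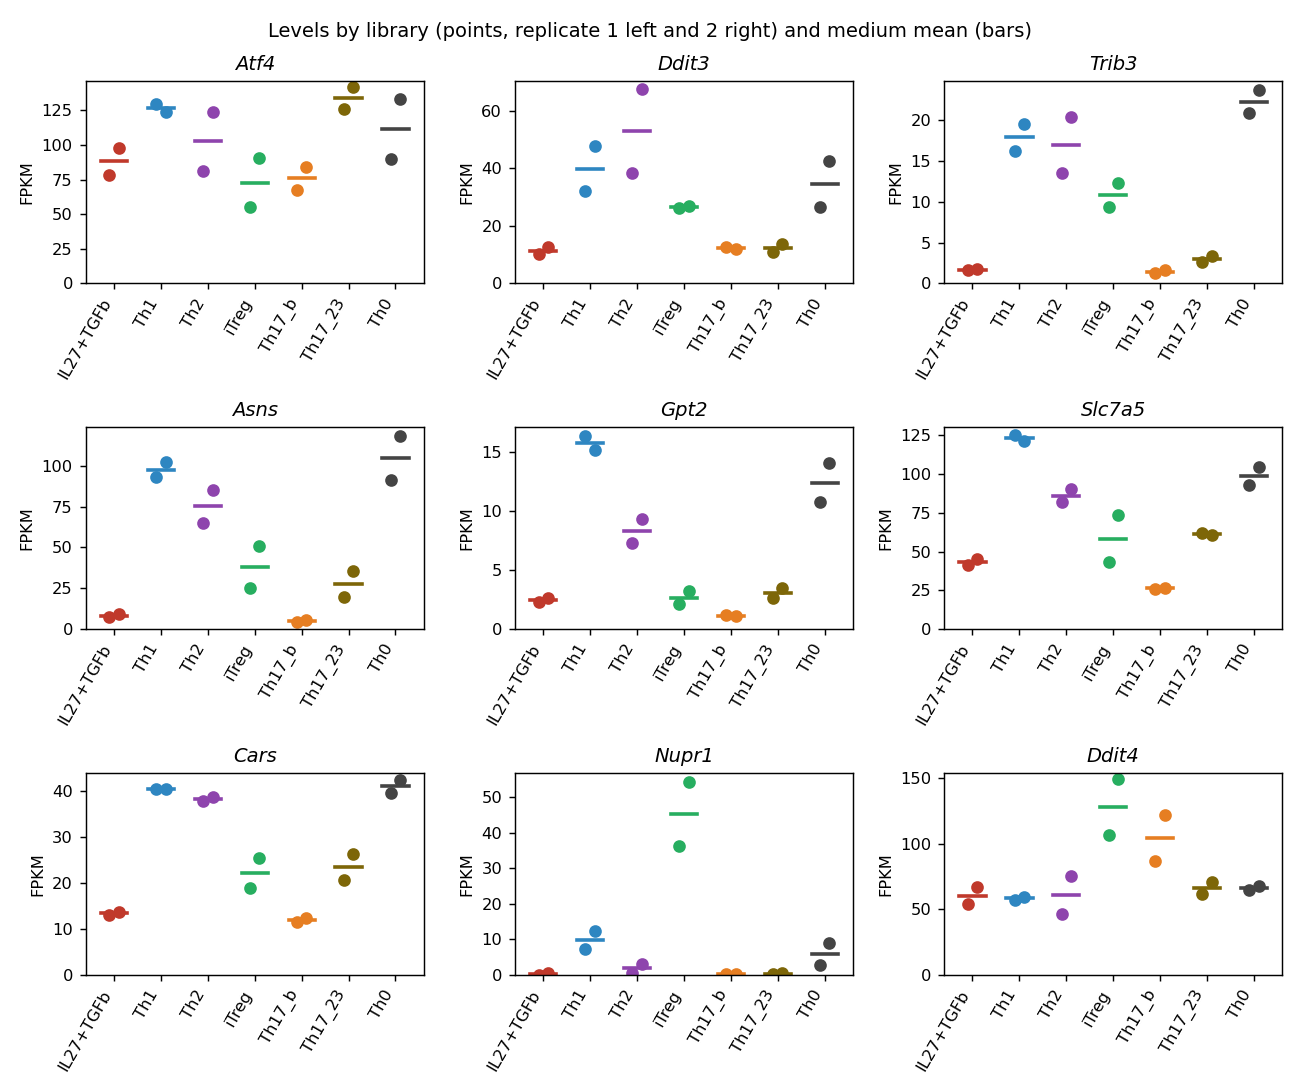
FPKM (vertical axes, linear and starting at 0) of 9 genes in the 7 media; points are libraries, with replicate 1 left and replicate 2 right, and bars are medium means. Trib3, Asns and Ddit3 are low in IL27+TGFb, Th17_b and Th17_23, Nupr1 and Ddit4 are highest in iTreg, and the Atf4 points of most media overlap.

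Of the feedback and effector genes, Trib3 was the one that was lower in all 4 of these media with the smallest standard error. It encodes a pseudokinase that ATF4 and CHOP raise and that restrains ATF4. Trib3 had 1.57 and 1.74 FPKM in IL-27 plus TGF-β, 16.3 and 19.6 in Th1, 13.5 and 20.4 in Th2, 9.37 and 12.3 in iTreg, 1.22 and 1.64 in Th17_b, 2.65 and 3.31 in Th17_23, and 20.9 and 23.7 in Th0. No library of IL-27 plus TGF-β, iTreg, Th17_b or Th17_23 reached those of Th1, Th2 or Th0, and iTreg stood between. The mean was 13.5-fold lower in IL-27 plus TGF-β than in Th0 (log2 change -3.13 ± 0.10, adjusted p = 3.1e-08), 15.6-fold lower in Th17_b (-3.27 ± 0.10, adjusted p = 2.6e-08), 7.49-fold lower in Th17_23 (-2.55 ± 0.10, adjusted p = 2.4e-07) and 2.06-fold lower in iTreg (-0.99 ± 0.10, adjusted p = 4.1e-05).

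Chac1, an enzyme that degrades glutathione, had 0.433 and 0.654 FPKM in IL-27 plus TGF-β, 3.48 and 7.06 in Th1, 4.30 and 10.1 in Th2, 1.71 and 3.78 in iTreg, 0.174 and 0.139 in Th17_b, 0.396 and 1.15 in Th17_23, and 2.84 and 5.90 in Th0. Its libraries in IL-27 plus TGF-β, Th17_b and Th17_23 were all at or below 1.15 FPKM and below both Th0 libraries, and those of iTreg overlapped with Th0. Its log2 change was -1.74 ± 0.23 in IL-27 plus TGF-β (adjusted p = 0.00022), -2.16 ± 0.23 in Th17_b (adjusted p = 5.2e-05) and -1.57 ± 0.23 in Th17_23 (adjusted p = 0.00056).

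Stc2, a secreted glycoprotein of the stress response, spanned the widest range of the feedback and effector genes. It had 3.19 and 6.19 FPKM in IL-27 plus TGF-β, 12.1 and 15.9 in Th1, 51.8 and 61.5 in Th2, 1.07 and 4.22 in iTreg, 0.298 and 0.417 in Th17_b, 3.13 and 4.58 in Th17_23, and 18.2 and 29.6 in Th0. Both Th2 libraries were the highest of all 14 and both Th17_b libraries the lowest. The log2 change was 1.25 ± 0.24 in Th2 (adjusted p = 0.0063), lost without Th2 replicate 1 (0.051), without Th0 replicate 1 (0.053) or without the replicate block (0.071). It was -2.14 ± 0.24 in IL-27 plus TGF-β (adjusted p = 6.6e-05), -2.88 ± 0.24 in iTreg (adjusted p = 1.2e-05), -4.16 ± 0.24 in Th17_b (adjusted p = 9.6e-07) and -2.33 ± 0.24 in Th17_23 (adjusted p = 6.2e-05).

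The remaining effectors did not share this pattern. Ddit4, an inhibitor of mTORC1, had 53.6 and 66.8 FPKM in IL-27 plus TGF-β, 107 and 149 in iTreg, 86.8 and 122 in Th17_b and 64.9 and 68.0 in Th0. Every iTreg and Th17_b library was above both Th0 libraries, with log2 changes of 0.91 ± 0.15 in iTreg (adjusted p = 0.00051) and 0.62 ± 0.15 in Th17_b (adjusted p = 0.0056); the Th17_b call was lost without Th17_b replicate 2 (0.054), without Th0 replicate 2 (0.062) or without the replicate block (0.052). Sesn2, a leucine sensor that also restrains mTORC1, was higher in Th17_23, with 12.5 and 11.9 FPKM against 8.02 and 7.93 in Th0 (0.56 ± 0.17, adjusted p = 0.023), and lower in Th17_b, with 4.11 and 6.90 (-0.50 ± 0.17, adjusted p = 0.033). Among other alternatives, both Sesn2 calls were lost without Th0 replicate 1 (adjusted p 0.055 and 0.18) or replicate 2 (0.14 and 0.064). Vldlr, a lipoprotein receptor, averaged 0.121 FPKM in iTreg against 1.21 in Th0 (-0.97 ± 0.12, adjusted p = 0.00012).

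The 8 enzymes of amino acid synthesis were all lower in IL-27 plus TGF-β, in iTreg and in Th17_b than in Th0, and 7 of the 8 in Th17_23. Of all genes, 28.9%, 40.8%, 29.1% and 23% were lower in these media, in the same order. Asns, which makes asparagine from aspartate and glutamine, spanned the widest range of the 8. It had 7.31 and 9.25 FPKM in IL-27 plus TGF-β, 93.1 and 102 in Th1, 65.0 and 85.4 in Th2, 25.3 and 50.8 in iTreg, 4.40 and 5.79 in Th17_b, 19.9 and 35.5 in Th17_23, and 91.5 and 118 in Th0. The libraries of IL-27 plus TGF-β and Th17_b were all at or below 9.25 FPKM, those of iTreg and Th17_23 between 19.9 and 50.8, and those of Th1, Th2 and Th0 at 65.0 or above, with no overlap between these ranges. Against Th0 the mean was 12.7-fold lower in IL-27 plus TGF-β (log2 change -3.51 ± 0.18, adjusted p = 4.7e-07), 2.76-fold lower in iTreg (-1.51 ± 0.18, adjusted p = 9e-05), 20.6-fold lower in Th17_b (-4.12 ± 0.18, adjusted p = 1.9e-07) and 3.79-fold lower in Th17_23 (-1.93 ± 0.18, adjusted p = 3.6e-05).

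Pycr1, which makes proline from the pyrroline carboxylate that Aldh18a1 leads to, did not exceed 6.97 FPKM in any library. It had 0.300 and 0.297 FPKM in IL-27 plus TGF-β, 5.06 and 5.71 in Th1, 4.23 and 6.16 in Th2, 1.34 and 4.16 in iTreg, 0.410 and 0.396 in Th17_b, 0.623 and 1.22 in Th17_23, and 4.49 and 6.97 in Th0. Its libraries in IL-27 plus TGF-β and Th17_b were at or below 0.410 FPKM, and the iTreg libraries lay below both Th0 libraries. Against Th0, the log2 change was -2.35 ± 0.24 in IL-27 plus TGF-β (adjusted p = 3.4e-05), -2.24 ± 0.24 in Th17_b (adjusted p = 4.3e-05) and -1.80 ± 0.24 in Th17_23 (adjusted p = 0.00027). In iTreg it was -0.93 ± 0.24 (adjusted p = 0.0067), a call lost without iTreg replicate 1 (0.056) or Th0 replicate 2 (0.051). Aldh18a1 changed by -1.27 in IL-27 plus TGF-β, -0.98 in iTreg, -1.25 in Th17_b and -0.86 in Th17_23 on the log2 scale, all called.

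Gpt2, the mitochondrial alanine transaminase, had 2.26 and 2.63 FPKM in IL-27 plus TGF-β, 16.4 and 15.2 in Th1, 7.27 and 9.34 in Th2, 2.11 and 3.21 in iTreg, 1.18 and 1.11 in Th17_b, 2.60 and 3.46 in Th17_23, and 10.8 and 14.1 in Th0. No library of IL-27 plus TGF-β, iTreg, Th17_b or Th17_23 exceeded 3.46 FPKM, and none of Th1, Th2 or Th0 was below 7.27 FPKM. The mean was 5.08-fold lower in IL-27 plus TGF-β than in Th0 (log2 change -1.95 ± 0.13, adjusted p = 2.4e-06), 4.68-fold lower in iTreg (-1.88 ± 0.13, adjusted p = 4.4e-06), 10.9-fold lower in Th17_b (-2.64 ± 0.13, adjusted p = 4e-07) and 4.10-fold lower in Th17_23 (-1.73 ± 0.13, adjusted p = 1e-05).

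The serine pathway runs from 3-phosphoglycerate through Phgdh, Psat1 and Psph. In IL-27 plus TGF-β these 3 genes averaged 84.5 ± 3.02, 107 ± 4.49 and 21.4 ± 2.52 FPKM, against 309 ± 27.1, 189 ± 0.835 and 44.2 ± 0.639 FPKM in Th0 (SD, n = 2 each). The libraries of the 2 media did not overlap in any of the 3. The log2 changes were -1.86 ± 0.15 (adjusted p = 8.4e-06), -0.82 ± 0.11 (adjusted p = 0.00017) and -1.02 ± 0.13 (adjusted p = 0.00016), the largest fall being that of Phgdh, which opens the pathway. In Th17_b the 3 changes were -2.17, -1.44 and -1.31, in iTreg -1.31, -1.15 and -1.09, and in Th17_23 -0.99, -0.48 and -0.52, all called. The Psph call in Th17_23 was lost without Th17_23 replicate 1 (0.088) or Th0 replicate 1 (0.067). Got1, the cytosolic aspartate transaminase, was the enzyme not called in Th17_23, with 51.2 and 57.4 FPKM against 53.1 and 62.7 in Th0 (-0.09 ± 0.16, adjusted p = 0.67).

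The 3 mitochondrial 1-carbon enzymes were lower in IL-27 plus TGF-β, iTreg and Th17_b. Of all genes, 28.9%, 40.8% and 29.1% were lower in these media, in the same order. Shmt2, which splits serine into glycine and a carbon unit, had 69.4 and 75.7 FPKM in IL-27 plus TGF-β, 130.2 and 115 in Th1, 132 and 118 in Th2, 44.5 and 76.7 in iTreg, 53.3 and 55.5 in Th17_b, 92.1 and 96.0 in Th17_23, and 151 and 157 in Th0. The libraries of IL-27 plus TGF-β, iTreg and Th17_b were all at or below 76.7 FPKM and those of the other media all at or above 92.1 FPKM. Its log2 change was -1.08 ± 0.19 in IL-27 plus TGF-β (adjusted p = 0.0011), -1.38 ± 0.19 in iTreg (adjusted p = 0.00019), -1.49 ± 0.19 in Th17_b (adjusted p = 0.00013) and -0.71 ± 0.19 in Th17_23 (adjusted p = 0.012). The Th17_23 call was lost without Th17_23 replicate 1 (0.053) or 2 (0.067) or Th0 replicate 1 (0.069).

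Mthfd2, which oxidizes that carbon unit, had 36.7 and 43.8 FPKM in IL-27 plus TGF-β, 111 and 109 in Th1, 73.7 and 84.5 in Th2, 41.6 and 66.0 in iTreg, 29.8 and 35.5 in Th17_b, 61.6 and 76.8 in Th17_23, and 98.5 and 115 in Th0. Libraries of IL-27 plus TGF-β, iTreg and Th17_b lay below those of Th0, Th1 and Th2, while iTreg replicate 2 lay within the Th17_23 range. The log2 change was -1.39 ± 0.12 in IL-27 plus TGF-β (adjusted p = 1.7e-05), -1.01 ± 0.12 in iTreg (adjusted p = 0.00012), -1.68 ± 0.12 in Th17_b (adjusted p = 4.9e-06) and -0.62 ± 0.12 in Th17_23 (adjusted p = 0.0031).

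Mthfd1l, which releases the unit as formate, had 28.7 and 32.1 FPKM in IL-27 plus TGF-β, 41.6 and 37.7 in Th1, 39.1 and 41.0 in Th2, 21.1 and 28.2 in iTreg, 32.0 and 32.3 in Th17_b, 44.9 and 45.1 in Th17_23, and 53.4 and 50.9 in Th0. All TGF-β libraries lay below all others, by a small margin, since Th17_b replicate 2 had 32.3 FPKM and Th1 replicate 2 had 37.7 FPKM. Against Th0, the log2 change was -0.76 ± 0.11 in IL-27 plus TGF-β (adjusted p = 0.0004), -1.07 ± 0.11 in iTreg (adjusted p = 4.9e-05) and -0.68 ± 0.11 in Th17_b (adjusted p = 0.00073). Of 11 other folate and glycine enzymes tested, 4 were lower and 2 higher in IL-27 plus TGF-β, 8 lower and 1 higher in iTreg, 6 lower in Th17_b, and 2 lower and 2 higher in Th17_23. Among all genes, 28.9% were lower and 22% higher in IL-27 plus TGF-β and 40.8% and 22.7% in iTreg. In Th17_b these shares were 29.1% and 25.4%, and in Th17_23 23% and 26.4%. The cytosolic enzymes Shmt1 and Mthfd1 averaged 7.69 and 9.86 FPKM in iTreg, against 40.8 and 38.0 in Th0 (log2 changes -2.30 ± 0.23, adjusted p = 3.2e-05, and -1.86 ± 0.18, adjusted p = 2.9e-05), and 37.9 and 39.4 FPKM in IL-27 plus TGF-β, where neither was called (adjusted p = 0.75 and adjusted p = 0.84). The mitochondrial Aldh1l2 averaged 0.134 FPKM in IL-27 plus TGF-β and 0.0182 in Th17_b against 2.67 in Th0 (-1.66 ± 0.19, adjusted p = 8.5e-05, and -1.81 ± 0.19, adjusted p = 4.3e-05).

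The transporters divided. The leucine transporter Slc7a5 and its partner chain Slc3a2, which together form the CD98 heterodimer, were lower in IL-27 plus TGF-β, iTreg, Th17_b and Th17_23. Slc7a5 had 41.4 and 45.4 FPKM in IL-27 plus TGF-β, 126 and 122 in Th1, 81.9 and 90.3 in Th2, 43.1 and 73.6 in iTreg, 26 and 26.8 in Th17_b, 62.0 and 61.0 in Th17_23, and 92.7 and 105 in Th0. Both libraries of each of these 4 media lay below both Th0 libraries, and Th17_b stood apart as the lowest. Its log2 change was -1.17 ± 0.16 in IL-27 plus TGF-β (adjusted p = 0.00028), -0.80 ± 0.16 in iTreg (adjusted p = 0.0021), -1.86 ± 0.16 in Th17_b (adjusted p = 1.3e-05) and -0.67 ± 0.16 in Th17_23 (adjusted p = 0.0078), the last lost without Th17_23 replicate 2 (0.07).

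Slc3a2 had 39.6 and 39.7 FPKM in IL-27 plus TGF-β, 87.7 and 88.7 in Th1, 64.2 and 68.3 in Th2, 39.8 and 64.7 in iTreg, 34.4 and 37.4 in Th17_b, 42.8 and 47.1 in Th17_23, and 64.8 and 77.3 in Th0. Both libraries of IL-27 plus TGF-β, Th17_b and Th17_23 lay well below both Th0 libraries, while the higher iTreg library was close to the lower Th0 library and the Th2 libraries overlapped with Th0. The log2 change was -0.82 ± 0.14 in IL-27 plus TGF-β (adjusted p = 0.0011), -0.96 ± 0.14 in Th17_b (adjusted p = 0.00038) and -0.65 ± 0.14 in Th17_23 (adjusted p = 0.005). In iTreg it was -0.47 ± 0.14 (adjusted p = 0.016), lost without iTreg replicate 1 (0.12), Th0 replicate 1 (0.052) or Th0 replicate 2 (0.087).

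Slc1a4, a carrier of alanine, serine and cysteine, was called lower in Th17_23 and higher in iTreg. It had 9.17 and 9.21 FPKM in IL-27 plus TGF-β, 6.81 and 7.16 in Th1, 5.63 and 6.90 in Th2, 12.7 and 10.6 in iTreg, 9.03 and 7.60 in Th17_b, 2.58 and 3.23 in Th17_23, and 7.90 and 9.64 in Th0. Both Th17_23 libraries lay below the other 12. Against Th0, the log2 change was -1.32 ± 0.13 in Th17_23 (adjusted p = 5.9e-05), against 0.07 ± 0.13 in IL-27 plus TGF-β (adjusted p = 0.71). In iTreg it was 0.37 ± 0.13 (adjusted p = 0.032), a call lost without iTreg replicate 1 (0.27) or Th0 replicate 1 (0.22).

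The cationic amino acid carrier Slc7a1 and the glutamine carrier Slc1a5 were lower in IL-27 plus TGF-β (-0.58 and -0.70 on the log2 scale), iTreg (-0.79 and -0.70) and Th17_b (-0.93 and -0.66), all called, and in Th17_23 their changes were -0.12 and -0.16 with adjusted p of 0.34 and 0.26. The cystine carrier Slc7a11 had medium means of 1.34 to 2.67 FPKM and was called only in iTreg (-0.59 ± 0.12, adjusted p = 0.0021). The glutamine carriers Slc38a1 and Slc38a2 had libraries between 33.4 and 47.1 FPKM and between 28.9 and 44.3 FPKM over all media. Slc38a1 was called lower in iTreg (-0.30 ± 0.07, adjusted p = 0.0051), a call lost when the highest transcript stood in for the sum (0.25) or under quantile normalization (0.1).

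Of 13 other amino acid transporters tested, 5 were higher and 2 lower in IL-27 plus TGF-β, 4 higher and 5 lower in iTreg, 7 higher and 2 lower in Th17_b, and 4 higher and 3 lower in Th17_23. The shares of all genes were 22% higher and 28.9% lower in IL-27 plus TGF-β and 22.7% and 40.8% in iTreg. They were 25.4% and 29.1% in Th17_b and 26.4% and 23% in Th17_23. The glycine carrier Slc6a9 averaged 0.576 FPKM in IL-27 plus TGF-β, 2.98 in iTreg, 0.239 in Th17_b and 0.929 in Th17_23, against 8.86 in Th0 (log2 changes -2.64, -1.36, -2.98 and -2.36, all called). The arginine carrier Slc7a3 averaged 0.919 FPKM in IL-27 plus TGF-β and 0.264 in Th17_b, against 8.14 in Th0 (-2.22 and -2.82, both called). The branched-chain carrier Slc43a2 went up, to 25.3 FPKM in iTreg and 15.9 in Th17_b, against 4.73 in Th0 (2.19 ± 0.12, adjusted p = 1.2e-06, and 1.56 ± 0.12, adjusted p = 6.1e-06).

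All 10 listed cytosolic tRNA synthetases were lower in IL-27 plus TGF-β, iTreg and Th17_b than in Th0, with median log2 changes of -0.85, -0.99 and -1.08, and 6 of the 10 were lower in Th17_23, with a median of -0.30. Of all genes, 28.9% were lower in IL-27 plus TGF-β, 40.8% in iTreg, 29.1% in Th17_b and 23% in Th17_23. In Th1 and Th2 medium 0 of the 10 were called. The shares of all genes there were low, 7.57% lower and 6.37% higher in Th1 and 12.4% and 5.69% in Th2. With 10 genes, the 0 is no result about the synthetases. Cars, which charges cysteine tRNA, had 13.1 and 13.7 FPKM in IL-27 plus TGF-β, 40.4 and 40.4 in Th1, 37.9 and 38.8 in Th2, 18.9 and 25.5 in iTreg, 11.4 and 12.3 in Th17_b, 20.6 and 26.2 in Th17_23, and 39.7 and 42.5 in Th0. The 4 TGF-β libraries of IL-27 plus TGF-β and Th17_b lay at or below 13.7 FPKM, those of iTreg and Th17_23 between 18.9 and 26.2 FPKM, and those of Th1, Th2 and Th0 at or above 37.9 FPKM. Its log2 change was -1.55 ± 0.10 in IL-27 plus TGF-β (adjusted p = 2.5e-06), -0.88 ± 0.10 in iTreg (adjusted p = 9e-05), -1.71 ± 0.10 in Th17_b (adjusted p = 1.3e-06) and -0.79 ± 0.10 in Th17_23 (adjusted p = 0.00026).

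Sars, which charges serine and selenocysteine tRNA, had 33.5 and 34.9 FPKM in IL-27 plus TGF-β, 84.2 and 83.9 in Th1, 89.4 and 91.9 in Th2, 51.0 and 65.3 in iTreg, 33.6 and 36.2 in Th17_b, 50.7 and 60.6 in Th17_23, and 88.0 and 97.6 in Th0. Its libraries in IL-27 plus TGF-β and Th17_b lay below those of all other media. The log2 change was -1.41 ± 0.09 in IL-27 plus TGF-β (adjusted p = 1.6e-06), -0.67 ± 0.09 in iTreg (adjusted p = 0.00015), -1.38 ± 0.09 in Th17_b (adjusted p = 1.7e-06) and -0.73 ± 0.09 in Th17_23 (adjusted p = 0.00017).

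Nars, which charges asparagine tRNA, had 47.3 and 51.4 FPKM in IL-27 plus TGF-β, 122 and 109 in Th1, 110.4 and 105 in Th2, 49.2 and 66.4 in iTreg, 41.5 and 45.1 in Th17_b, 79.8 and 93.4 in Th17_23, and 124 and 130.5 in Th0. All libraries of IL-27 plus TGF-β, iTreg and Th17_b lay below all others. Against Th0, the log2 change was -1.35 ± 0.12 in IL-27 plus TGF-β (adjusted p = 1.6e-05), -1.14 ± 0.12 in iTreg (adjusted p = 4.9e-05), -1.53 ± 0.12 in Th17_b (adjusted p = 6.6e-06) and -0.55 ± 0.12 in Th17_23 (adjusted p = 0.0046). In the other 7 (Aars, Gars, Yars, Mars, Iars, Tars and Eprs) the log2 change ran from -1.13 (Gars) to -0.44 (Tars) in IL-27 plus TGF-β, from -1.29 (Eprs) to -0.70 (Aars) in iTreg and from -1.17 (Gars) to -0.73 (Tars) in Th17_b. The Tars call in IL-27 plus TGF-β was lost without its replicate 1 (0.052). In Th17_23 the calls in Aars, Gars and Eprs were each lost on leaving out any 1 of the 4 libraries.

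Of the other 10 cytosolic synthetases, which are not on the list, 4 were lower and 1 higher in IL-27 plus TGF-β, with a median log2 change of -0.07. The difference between the listed and the other synthetases was not tested. In iTreg 9 of the 10 were lower, with a median of -0.99, in Th17_b 6 were lower, and in Th17_23 4 were higher and 2 lower. Lars, for leucine, was lower in all 4 media, with log2 changes of -0.92 ± 0.12 in IL-27 plus TGF-β (adjusted p = 0.00015), -1.25 ± 0.12 in iTreg (adjusted p = 2.4e-05), -1.19 ± 0.12 in Th17_b (adjusted p = 2.7e-05) and -0.44 ± 0.12 in Th17_23 (adjusted p = 0.012). Hars, for histidine, averaged 69.8 FPKM in Th17_23 and 25.2 in iTreg, against 43.9 in Th0 (0.66 ± 0.11, adjusted p = 0.0012, and -0.78 ± 0.11, adjusted p = 0.00026). Of 17 mitochondrial synthetases, 6 were lower and 2 higher in IL-27 plus TGF-β, 13 lower in iTreg, 10 lower and 2 higher in Th17_b, and 1 lower and 3 higher in Th17_23. The counts in IL-27 plus TGF-β lie near the shares of all genes, 28.9% lower and 22% higher. These shares were 40.8% lower and 22.7% higher in iTreg, 29.1% and 25.4% in Th17_b, and 23% and 26.4% in Th17_23.

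**Figure D4:**
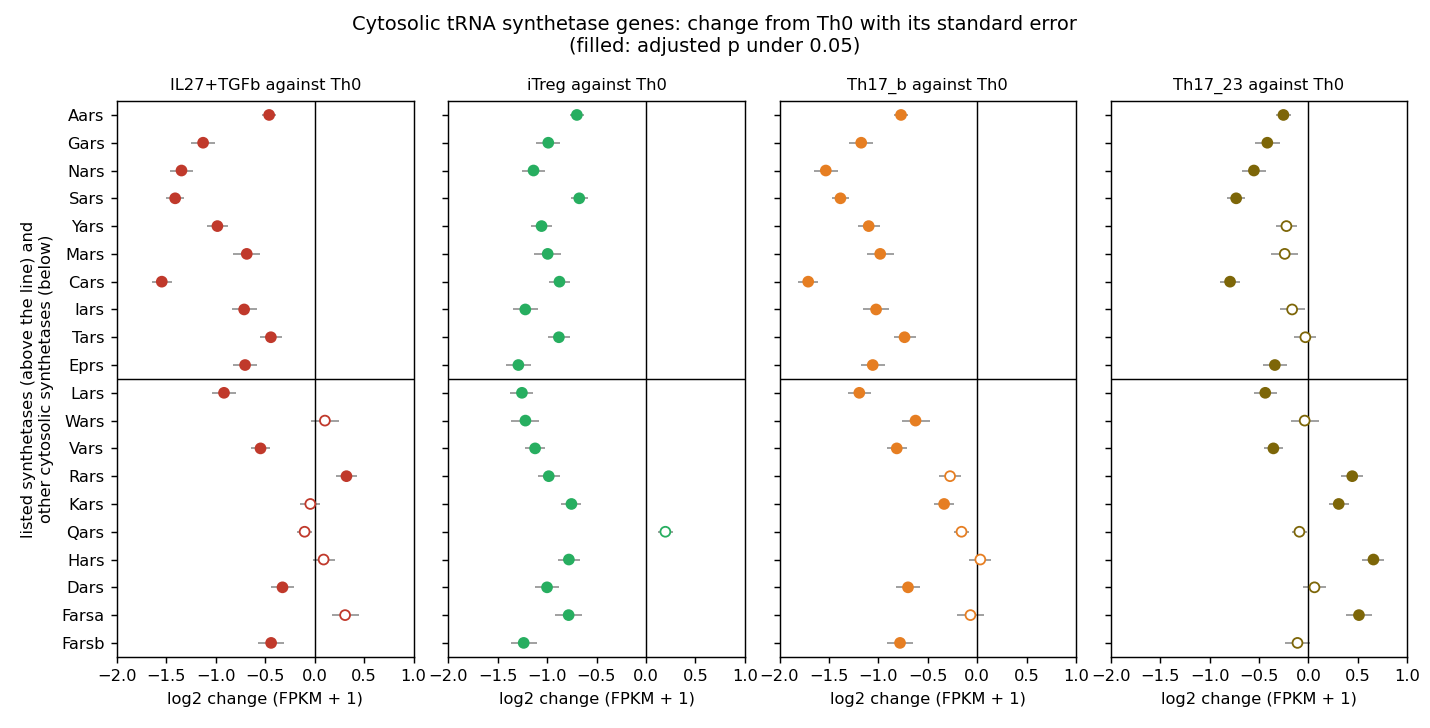
Log2 change from Th0 (horizontal axes, ± standard error) of 10 listed cytosolic tRNA synthetases (above the line) and the 10 others (below it) in 4 media; filled points passed an adjusted p under 0.05. All 10 listed points are filled and left of 0 in IL27+TGFb, iTreg and Th17_b, while below the line 4 are filled and left of 0 in IL27+TGFb and 9 in iTreg.

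The direct comparison of IL-27 plus TGF-β with iTreg, both of which hold TGF-β at different doses, split the genes. Of the 42, 14 were lower and 11 higher in IL-27 plus TGF-β, against 27.9% lower and 38.4% higher of all genes tested. Quantile normalization gave 20 lower and 8 higher, against 32.8% lower and 33.8% higher of all genes. Scaling to 1 median gave 19 lower and 10 higher, against 32.4% lower and 34.5% higher of all genes. The lower ones were led by Nupr1, Trib3 (-2.15 ± 0.10, adjusted p = 2e-07), Asns (-2.0 ± 0.18, adjusted p = 1e-05) and Pycr1 (-1.42 ± 0.24, adjusted p = 0.00051), and held 4 stress factors, 3 feedback and effector genes (Trib3, Chac1 and Ddit4), 4 synthesis enzymes, Mthfd2, Cars and Sars. Asns averaged 8.28 ± 1.37 FPKM in IL-27 plus TGF-β and 38.1 ± 18.1 FPKM in iTreg (SD, n = 2 each), and the libraries did not overlap. The higher ones were led by Vldlr (0.79 ± 0.12, adjusted p = 0.0003), Stc2 (0.74 ± 0.24, adjusted p = 0.02) and Eprs (0.59 ± 0.12, adjusted p = 0.0021), and held the synthetases Eprs, Iars, Tars and Aars, the transporters Slc7a11 and Slc38a1, and Psat1, Mthfd1l and Sesn2. Of the other cytosolic synthetases 9 of 10 were higher in IL-27 plus TGF-β and 1 lower.

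**Figure D5:**
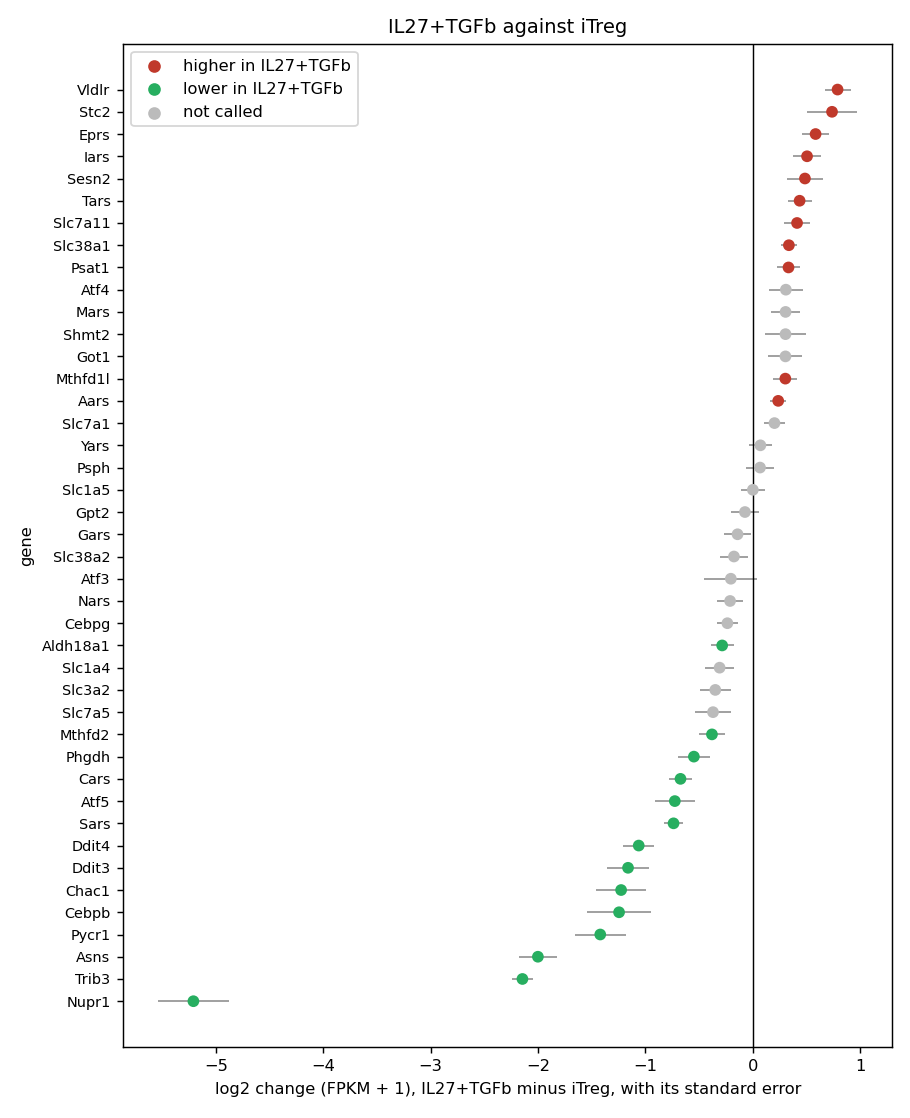
Log2 change of IL27+TGFb against iTreg (horizontal axis, ± standard error) for each of the 42 genes, sorted by the change; green points were called lower in IL27+TGFb, red ones higher. Nupr1, Trib3, Asns and Pycr1 lie at the low end and Vldlr, Stc2, Eprs and Iars at the high end.

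The iTreg values rest on 2 libraries that stood apart, and Asns, for example, had 25.3 and 50.8 FPKM in them. Within the replicate 1 table the median log2 change of the 42 genes in iTreg against Th0 was -1.02 and within the replicate 2 table -0.72, and all 37 called genes had the same sign in both. In IL-27 plus TGF-β against iTreg, the counts were 18 lower and 3 higher without iTreg replicate 1, and 11 lower and 17 higher without iTreg replicate 2. Without IL-27 plus TGF-β replicate 2 they were 10 lower and 6 higher. The calls in Stc2, Iars, Tars, Aars, Psat1, Mthfd1l, Sesn2 and Slc7a11 were lost without iTreg replicate 1, and those in Aldh18a1, Atf5, Mthfd2 and Phgdh without iTreg replicate 2; Nupr1, Trib3, Asns, Pycr1, Ddit3, Cebpb, Chac1, Ddit4, Sars, Cars, Vldlr and Eprs kept their calls in every alternative tried.

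Between IL-27 plus TGF-β and Th17_b, which held IL-6 in place of IL-27 at the same TGF-β dose and no anti-IL-4, 11 genes were called. In IL-27 plus TGF-β 10 were higher and 1 lower, with a median log2 change of 0.20, against 16.7% higher and 22% lower of all genes, a split of 1931 higher and 2536 lower that became 2717 and 2135 when libraries were scaled to 1 median. Stc2 rose most, with 3.19 and 6.19 FPKM in IL-27 plus TGF-β against 0.298 and 0.417 in Th17_b (2.02 ± 0.24, adjusted p = 0.00013), then Slc7a5 with 41.4 and 45.4 FPKM in IL-27 plus TGF-β against 26 and 26.8 in Th17_b (0.70 ± 0.16, adjusted p = 0.0079) and Gpt2 (0.68 ± 0.13, adjusted p = 0.0026). The gene that fell was Ddit4 (-0.77 ± 0.15, adjusted p = 0.0026). The Slc7a5 call was lost without IL-27 plus TGF-β replicate 1 (0.056) or Th17_b replicate 2 (0.065). Asns had 7.31 and 9.25 FPKM in IL-27 plus TGF-β against 4.40 and 5.79 in Th17_b (0.61 ± 0.18, adjusted p = 0.024), a call lost on leaving out any 1 of the 4 libraries, and Trib3 had 1.57 and 1.74 FPKM in IL-27 plus TGF-β against 1.22 and 1.64 in Th17_b (adjusted p = 0.32). Fitting these 2 media alone called 22 higher and 1 lower, and leaving out 1 library left 5 to 8 called.

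The Th17 media differed from each other. In Th17_b 30 of the 42 genes were lower and 2 higher than in Th17_23, with a median log2 change of -0.73, against 32.3% lower and 23.4% higher of all genes. Asns fell to 4.40 and 5.79 FPKM in Th17_b, against 19.9 and 35.5 in Th17_23 (-2.19 ± 0.18, adjusted p = 1.2e-05). Stc2 (-1.82 ± 0.24, adjusted p = 0.00021) and Cebpb (-1.71 ± 0.30, adjusted p = 0.0012) followed, and all 10 listed synthetases were lower, from -0.98 (Nars) to -0.52 (Aars). Slc1a4 (1.25 ± 0.13, adjusted p = 6e-05) and Ddit4 (0.63 ± 0.15, adjusted p = 0.0054) were higher. Ddit3, with 12.7 and 11.9 FPKM in Th17_b and 10.8 and 13.7 in Th17_23 (0.01 ± 0.19, adjusted p = 0.97), Nupr1 (adjusted p = 0.91) and Cebpg (adjusted p = 0.85) were not called between the Th17 media, though each was lower in both than in Th0.

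In 15 of the 42 genes every library of the 3 media with TGF-β (6 libraries) lay below every library of the 4 media without it (8 libraries), against 5.53% of all genes. The reverse order was seen in 0 of the 42 genes. Its share of all genes was not counted, so this 0 is no result about these genes. This grouping by the labels was looked at after the values were known and is given with no test. The 15 were Atf3, Psat1, Psph, Got1, Shmt2, Mthfd1l, Slc7a1 and the synthetases Aars, Gars, Nars, Yars, Mars, Iars, Tars and Eprs. With the Th17_23 libraries left out the number was 26, against 9.52% of all genes. Asns, Trib3, Gpt2 and Cars were among the genes that joined, since Th17_23 libraries overlapped with iTreg libraries there or lay below them.

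Likeness of pattern over the 7 medium means of log2(FPKM + 1) was taken as Pearson correlation with Asns, as a description over 7 means that share libraries and scaling. Cars (0.989), Sars (0.982), Phgdh (0.967) and Slc7a5 (0.962) were the most like Asns, and 16 of the other 41 genes reached 0.9. With Slc7a5, the most alike were Mthfd2 (0.975), Asns (0.962) and Cars (0.961), and 14 of 41 reached 0.9. Atf4 reached 0.548 with Asns and 0.68 with Slc7a5. Ddit4 (-0.372), Slc38a1 (-0.492) and Slc1a4 (-0.094) ran against Asns. By promoter element, in IL-27 plus TGF-β against Th0, 12 of 15 genes with it were lower, with a median log2 change of -0.98. Without it 18 of 22 were lower, with a median of -0.92. Of all genes tested, 28.9% were lower, and the share among all tested genes with the element was not counted. Slc7a5, Slc1a5, Slc38a1, Nars and Cars had no window and are in neither group. These values are a description only.

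The genes of kinases upstream of ATF4 were also read. Eif2ak4, the GCN2 kinase, averaged 7.16 FPKM in IL-27 plus TGF-β, 6.76 in iTreg, 5.86 in Th17_b and 7.35 in Th17_23, against 9.87 in Th0 (log2 changes -0.41, -0.51, -0.66 and -0.38, all called). Eif2ak3, the PERK kinase, was higher in iTreg, with 43.3 and 26.7 FPKM against 6.39 and 6.65 in Th0 (2.22 ± 0.18, adjusted p = 1e-05), and in Th17_b, with 12.9 and 11.1 (0.79 ± 0.18, adjusted p = 0.0044). Of the 9 kinase, phosphatase and eIF2 genes listed, 2 were higher and 1 lower in IL-27 plus TGF-β, 2 higher and 4 lower in iTreg, 2 higher and 3 lower in Th17_b, and 4 higher and 1 lower in Th17_23. Over all genes, 22% were higher and 28.9% lower in IL-27 plus TGF-β, 22.7% and 40.8% in iTreg, and 25.4% and 29.1% in Th17_b. The counts in these media lie near or below those shares. In Th17_23 the shares were 26.4% and 23%, so the 4 of 9 genes higher there lie above the share. With 9 genes, these counts are no result about the list. Of 14 chaperones and targets of XBP1 or ATF6, which respond to unfolded protein, 5 were lower and 2 higher in IL-27 plus TGF-β, 11 lower in iTreg, 8 lower and 3 higher in Th17_b, and 3 lower and 1 higher in Th17_23. Herpud1, which ATF4 also raises, averaged 11.8 FPKM in IL-27 plus TGF-β against 43.5 in Th0 (-1.79 ± 0.11, adjusted p = 1.9e-06), while Hspa5, the chaperone BiP, averaged 205 FPKM in IL-27 plus TGF-β against 223 in Th0 (-0.12 ± 0.12, adjusted p = 0.44).

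Of 14 other amino acid enzymes tested, 7 were lower and 2 higher in IL-27 plus TGF-β, 9 lower and 2 higher in iTreg, 6 lower and 2 higher in Th17_b, and 4 lower and 7 higher in Th17_23. The shares of all genes were 28.9% lower and 22% higher in IL-27 plus TGF-β and 40.8% and 22.7% in iTreg. They were 29.1% and 25.4% in Th17_b and 23% and 26.4% in Th17_23. Cth, which makes cysteine from cystathionine, had 0.787 and 1.51 FPKM in IL-27 plus TGF-β, 1.11 and 4.38 in iTreg, 0.385 and 0.692 in Th17_b and 13.3 and 16.8 in Th17_23, against 9.21 and 19.9 in Th0. Every library of the 3 TGF-β media lay below both Th0 libraries, with log2 changes of -2.79 ± 0.25 (adjusted p = 1.8e-05) in IL-27 plus TGF-β, -2.12 ± 0.25 (adjusted p = 9.9e-05) in iTreg and -3.25 ± 0.25 (adjusted p = 6.6e-06) in Th17_b, against 0.13 ± 0.25 (adjusted p = 0.7) in Th17_23. Odc1, which opens polyamine synthesis, was higher in Th17_b, at 536 FPKM against 135 in Th0 (1.98 ± 0.14, adjusted p = 3.1e-06), and lower in iTreg, at 61.3 (-1.13 ± 0.14, adjusted p = 0.00011).

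Myc, proliferation and IL-2 feedback genes were read beside the supply genes. Myc had 79.5 and 84.1 FPKM in IL-27 plus TGF-β, 19.2 and 50.6 in iTreg, 91.5 and 86.0 in Th17_b and 128 and 124 in Th17_23, against 84.1 and 129 in Th0. It was lower in iTreg (-1.71 ± 0.32, adjusted p = 0.0012) and not called in IL-27 plus TGF-β (-0.35 ± 0.32, adjusted p = 0.39) or Th17_b (-0.23 ± 0.32, adjusted p = 0.56). The proliferation genes Mki67, Top2a and Ccnb1 were all lower in iTreg, with log2 changes of -0.37, -0.55 and -0.40, and none of the 3 was called in IL-27 plus TGF-β or Th17_b. The IL-2 and STAT5 feedback genes listed were Il2ra, Cish and Socs2, and 2 of the 3 were called in the F test, against 93% of all genes. Only the values of Cish are given here, and they do not stand for the list. Cish had 2.68 and 3.70 FPKM in IL-27 plus TGF-β, 19.4 and 86.8 in iTreg, 8.75 and 12.3 in Th17_b and 27.1 and 57.5 in Th17_23, against 60.5 and 172 in Th0 (log2 changes -4.63, -1.29, -3.18 and -1.35, all called). Th0 medium also held anti-IL-2. The part of Myc, proliferation and IL-2 signalling in the levels of the supply genes was not tested.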

How the data were processed

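RNA of CD4+ T cells from 7 media, 2 libraries each, was sequenced by the authors, who deposited FPKM for 30028 transcripts in 2 tables, 1 per replicate number. TopHat2 2.0.3, Cufflinks 1.3.0 and build mm9 are named in the submitters' processing notes, with no role or order; whether the tables were scaled together, and the strand and the treatment of shared reads, are not given in the sources used here. Transcripts were named through RefSeq (96.7% by accession, 348 by symbol, 632 kept as their own ID) and their FPKM summed per gene. Genes with a mean of at least 1 FPKM in a medium (11546) were tested on log2(FPKM + 1) with limma 3.58.1 in R 4.3.3, in 1 fit of 14 libraries with medium and table (the replicate block) as terms and a mean-variance trend, which has 6 residual and 3.36 prior degrees of freedom. The fit was tested on simulated data.

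The 9 contrasts and the F test were adjusted by Benjamini-Hochberg over all genes tested, with 0.05 as the threshold. The 6 comparisons with Th0 share its libraries, so their values are set side by side and their overlaps are not tested. Alternatives changed the block, pseudocount (0.1), filter (none or 5 FPKM), scaling, trend, samples fitted and transcript summing, or left out 1 library. The genes and lists were chosen with earlier results of these data known. Values in all libraries are given for the 3 genes of each role with the widest range of medium means and for Atf4, Ddit3 and Slc7a5; each comparison names up to 3 rises and 3 falls, and each other list up to 3 genes with the smallest p. Some further genes were named after their values were seen. With 2 libraries a medium, precision is limited by their number, and FPKM give no counts from which an interval could be had.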

Additional observations from a re-analysis of the deposited data

How the results depend on the processing

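No comparison reversed its direction for any of the 217 called gene results under the alternatives run: 2586 values kept their side of the threshold and 227 lost it. Of the main counts of genes called, 34 in IL-27 plus TGF-β against Th0 ranged from 33 to 35, 37 in iTreg from 32 to 37, 38 in Th17_b from 35 to 39, 26 in Th17_23 from 21 to 33, 32 in Th17_b against Th17_23 from 30 to 35, and 41 in the F test from 39 to 42. The counts of Th1 and Th2 were less stable. Against 4 in Th1, there were 1 without the replicate block, 2 with no filter, 2 with the highest transcript, 0 with the compared media alone (13 at an unadjusted p under 0.05) and 0 to 1 on leaving out 1 library. Against 10 in Th2, there were 3 without the replicate block, 4 with no filter and 2 to 4 on leaving out 1 library. Against 11 in IL-27 plus TGF-β against Th17_b, there were 18 with libraries scaled to 1 median, 23 with the compared media alone and 5 to 8 on leaving out 1 library. Against 25 in IL-27 plus TGF-β against iTreg, leaving out 1 library gave 16 to 28. Some of these alternatives used fewer libraries or more genes, and others kept both as they were. The cause of the shifts in these counts was not tested.

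The replicate block stands for the 2 tables. Differences between replicates correlated at -0.132 to 0.359 over 21 pairs of media, over 0.1 in 15, so the shared number was not shown to pair samples. Scaling moved the all-gene median of iTreg against Th0 from -0.13 to -0.02 under quantile normalization. The number of libraries and low FPKM (Atf3, Nupr1, Chac1, Pycr1 and Vldlr are near 0 in some media) limit what can be seen.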

Other observations

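Several of the genes have more than 1 transcript in the tables, and for Mars and Shmt2 how their FPKM divide differed between some media. This was not so for all: in Nars, the less abundant transcript held 31.6% and 38.2% in IL-27 plus TGF-β and 34% and 37.5% in Th0. These shares are given as values with no test, were looked at after the totals, and depend on how the submitters' software divided reads between overlapping transcripts. For Mars, the methionine tRNA synthetase, the less abundant of 2 transcripts held 7.94% and 7.19% of the FPKM in IL-27 plus TGF-β, 23.4% and 19.9% in Th1, 17.3% and 17.7% in Th2, 14.1% and 17.8% in iTreg, 7.36% and 7.98% in Th17_b, 9.57% and 11.5% in Th17_23, and 15.6% and 16.4% in Th0. The libraries of IL-27 plus TGF-β and Th17_b were thus below those of all other media, and iTreg overlapped with Th0. For Shmt2, the less abundant of 2 transcripts held 18.1% and 15.9% in IL-27 plus TGF-β, 31.6% and 30% in Th1, 26.4% and 26.7% in Th2, 19.7% and 17.7% in iTreg, 17.8% and 17.7% in Th17_b, 18.5% and 25.9% in Th17_23, and 24.3% and 28.5% in Th0. All libraries of the 3 media with TGF-β were below both Th0 libraries, and the Th17_23 libraries fell on either side of the lower Th0 library.

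Of the 3 immediate early genes, listed as signs of cell handling, Jun was called and Fos and Egr1 were not. Jun averaged 24.2 FPKM in IL-27 plus TGF-β, 12.6 in iTreg, 21.3 in Th17_b and 3.82 in Th17_23, against 2.56 in Th0, with log2 changes of 2.83 ± 0.23 (adjusted p = 8.7e-06), 1.88 ± 0.23 (adjusted p = 0.00011), 2.64 ± 0.23 (adjusted p = 1.3e-05) and 0.44 ± 0.23 (adjusted p = 0.14). Fos and Egr1 were called in none of these 4 media (adjusted p from limma 0.24 or above). The part of Jun in the levels of the 42 genes was not tested.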
